A study of Rattus norvegicus with 2 samples.

Results

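RBL-2H3 is a cloned rat basophilic leukaemia line used as a mast cell model because it carries the high-affinity IgE receptor. Transcript levels of 10 genes that act just below that receptor were examined in it by strand-specific RNA sequencing. The genes were the adaptors Lat, Lat2, Lcp2, Gab2 and Grb2, the exchange factor Vav1, the phospholipases Plcg1 and Plcg2 and the PI3K catalytic subunits Pik3cd and Pik3cg. They were chosen by name as adaptors and lipid enzymes downstream of the kinase Syk, and all 10 were listed among the 15409 gene symbols measured. One library came from cells given PM2.5 (fine particulate matter) plus IgE and the antigen DNP-HSA, and is called the treated library here. The other came from cells given normal saline. The text on RNA extraction in the labels speaks of PM2.5 or IgE-DNP-HSA, whereas the treatment label joins them with plus, which is followed here. The labels leave unstated whether IgE and antigen were given to the saline cells too, so the parts of PM2.5 and of IgE with antigen in any difference cannot be told apart. The title of the treated sample carries a number for PM but no unit. Dose units, exposure times and the number of cultures are not given either. Each group has 1 library, so that every difference below is a description without a replicate check, and none was tested.

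When antigen crosslinks receptor-bound IgE, the kinases Lyn and Syk phosphorylate the membrane adaptors LAT and LAT2. Lcp2, Grb2, Gab2 and Vav1 gather on these scaffolds together with phospholipase C-gamma, which cleaves a membrane phosphoinositide into diacylglycerol and the calcium-releasing messenger IP3. Class I PI3K phosphorylates the same lipid to PIP3, which holds further signalling proteins at the membrane; both arms feed into degranulation and cytokine production in mast cells.

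The treated library held 3964955 reads and the saline library 7279671. Levels are normalised counts, that is reads divided by the authors' size factor of the library, and a log2 fold is that of treated over saline cells, with 1 added to each level. Beside a fold, an interval is the exact 95% Clopper-Pearson interval of the ratio of levels and covers counting error only. Where reads are given as 1 number against another, those of the treated library stand before those of the saline library. Of 10 mast cell and basophil markers, 8 were listed and had reads in both libraries, with summed levels of 25359 in treated cells and 27077 in saline cells; the tryptase genes Tpsb2 and Tpsab1 were not listed. Most of these sums came from Kit and Gata2, and single markers moved apart, with log2 folds between -1.07 for Hdc and 1.74 for Cpa3. None of 7 T lymphocyte, 5 B lymphocyte or 4 neutrophil markers was listed. Of 5 macrophage markers 4 were listed, with summed levels of 704 in treated cells and 1471 in saline cells, most of it from Csf1r, while Cd68 had 0 reads in treated cells and 19 in saline cells. Of 5 fibroblast and epithelial markers 2 were listed, with summed levels of 28.1 in treated cells and 13.9 in saline cells. The part of these markers in the differences below was not tested. Transcript lengths are not given, so folds compare a gene between the libraries. Where genes are ordered by reads or level, the order does not show which had more transcripts. In such bulk RNA, fewer cells that express a gene and less of its RNA per cell cannot be told apart.

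Of the 10 genes, 1 was at least 2-fold lower in the treated library, namely Pik3cd, and 0 were at least 2-fold higher. Among all 15097 symbols with a level of at least 1 in either library, 19.1% were at least 2-fold lower and 12.1% at least 2-fold higher; among the 9469 symbols with a level of at least 50, which all 10 genes passed, the shares were 8.59% and 7.47%. A count of 1 in 10 lies between these shares of lower symbols. Log2 folds were below 0 for 7 genes and above 0 for 3, with a median of -0.32 against -0.04 over those 9469 symbols. For 6 genes the counting interval lay below 0, for 2 it lay above 0 and for 2, Lat2 and Grb2, it held 0. The folds of 6 genes lay within the interquartile range of those symbols, between -0.51 and 0.43.

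**Figure D1:**
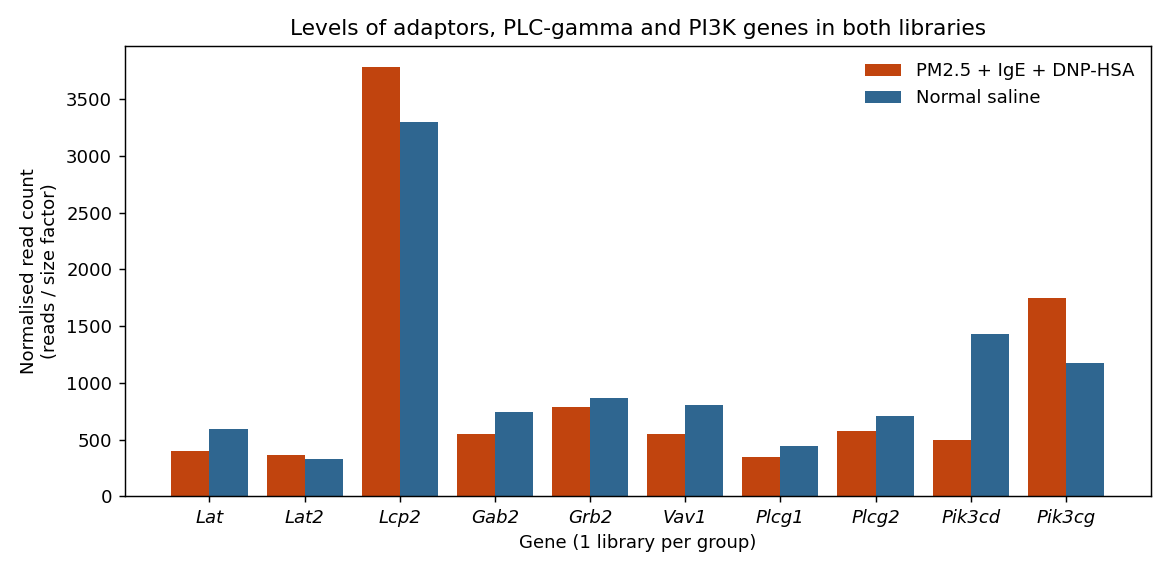
Normalised read counts of the 10 genes (bars, linear axis), with the treated library left of the saline library and 1 library per group. Pik3cd shows the widest gap, with 499 in treated cells and 1432 in saline cells, while Pik3cg, Lcp2 and Lat2 are higher in the treated library.

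**Figure D2:**
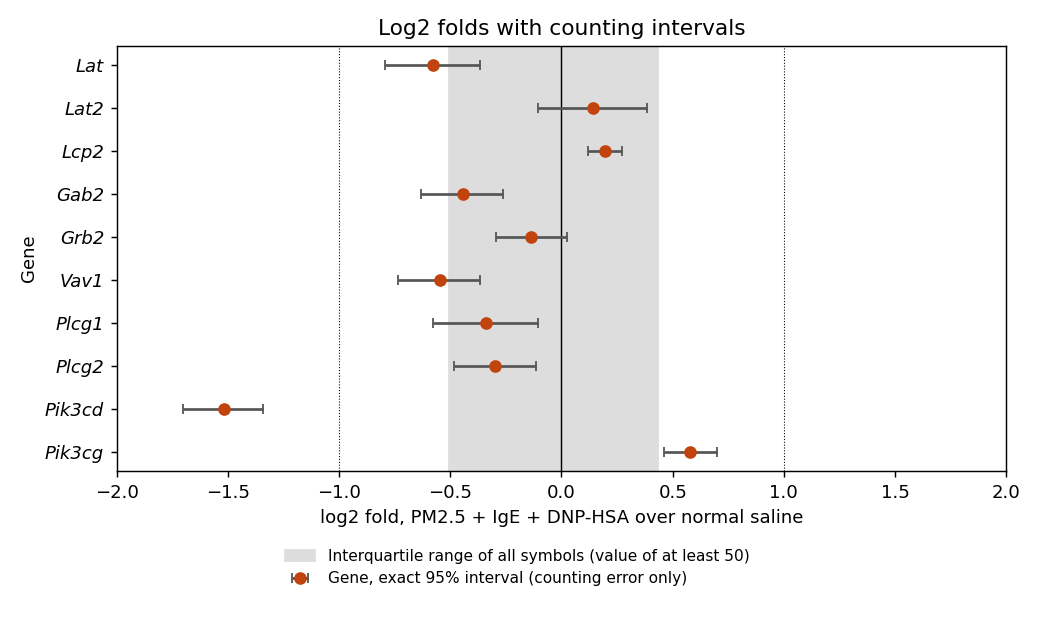
Log2 folds of treated over saline cells (points) with exact 95% counting intervals (bars); the grey band spans the interquartile range of all symbols with a level of at least 50, and dotted lines mark 2-fold. Pik3cd at -1.52 lies outside the dotted lines, and the other 9 genes lie between them.

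The PI3K catalytic subunits were the genes furthest apart. Pik3cd (ENSRNOG00000016846) encodes the delta isoform, a class IA enzyme that is brought to phosphorylated receptors and adaptors by a regulatory subunit. It had a level of 499 (302 reads) in the treated library and 1432 (1651 reads) in the saline library, a log2 fold of -1.52 (interval -1.70 to -1.34) or 2.87-fold lower in the treated library. Among symbols with a level of at least 50, 3.13% had a fold as low or lower. Pik3cg (ENSRNOG00000009385) encodes the gamma isoform, the class IB enzyme driven by G protein-coupled receptors, which amplifies degranulation in mouse mast cells. Its level was 1752 (1061 reads) in treated cells and 1172 (1351 reads) in saline cells, a log2 fold of 0.58 (interval 0.46 to 0.70). A fold as high or higher was found for 19.1% of those symbols.

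The order of these subunits by reads differed between the libraries. Of the reads on both genes together, Pik3cd took 22.2% (interval 20.0 to 24.5, exact Clopper-Pearson) in the treated library and 55.0% (interval 53.2 to 56.8) in the saline library. This share compares reads within a library and does not depend on the size factors. There were 3.51 Pik3cg reads for each Pik3cd read in the treated library and 0.818 in the saline library. The odds of a Pik3cd read differed by -2.10 on the log2 scale (exact conditional interval -2.32 to -1.89), which is 4.29-fold. Pik3ca and Pik3cb, the widely expressed alpha and beta isoforms, had intervals that held 0, with log2 folds of 0.17 for Pik3ca (interval -0.12 to 0.45) and 0.10 for Pik3cb (interval -0.08 to 0.27). Over all 4 class I catalytic genes, Pik3cd took 15.6% of reads in treated cells and 41.2% in saline cells, and Pik3cg took 54.9% in treated cells and 33.7% in saline cells. Pik3cb took 21.0% in treated cells and 18.1% in saline cells, and Pik3ca 8.53% in treated cells and 6.99% in saline cells. Pik3cd therefore held the largest share of these reads in the saline library and the next to smallest in the treated library. Without transcript lengths, this order of reads does not show which isoform had more transcripts.

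**Figure D3:**
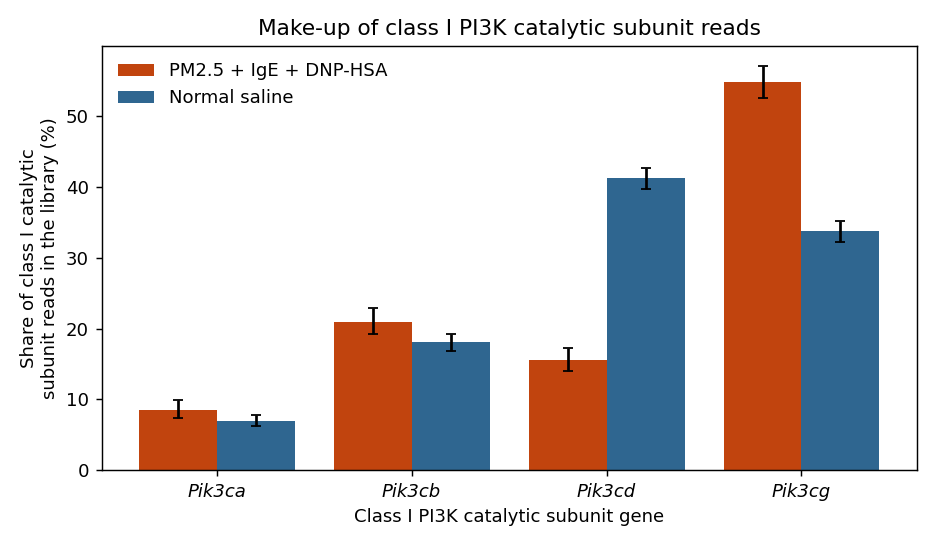
Share of class I PI3K catalytic subunit reads that fell on each gene (bars, percent of the reads on the 4 genes within a library), treated left of saline, with exact 95% Clopper-Pearson intervals. Pik3cd is at 15.6% in treated cells and 41.2% in saline cells, and Pik3cg at 54.9% in treated cells and 33.7% in saline cells.

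Regulatory subunits of these enzymes also differed among themselves. Pik3r1, which encodes the main class IA regulatory subunit, had levels of 563 in treated cells and 558 in saline cells (log2 fold 0.01, interval -0.18 to 0.21). Pik3r2, a second class IA regulatory gene, had 41.3 (25 reads) in treated cells and 237 (273 reads) in saline cells, a log2 fold of -2.49 (interval -3.17 to -1.93). Pik3r3, which encodes another class IA regulatory subunit, was at 0.69 on 25 against 29 reads, with an interval of -0.12 to 1.54 that held 0. Both class IB partners of the gamma isoform went the other way from Pik3cg. Pik3r6 was at -1.29 (interval -1.74 to -0.88, 56 against 262 reads) and Pik3r5 at -0.69 (interval -1.27 to -0.15, 37 against 114 reads). All 12 other PI3K genes listed were measured, with a median of -0.25. Of them 0 were at least 2-fold higher and 2, Pik3r2 and Pik3r6, at least 2-fold lower, beside 12.1% and 19.1% of all symbols. Among symbols with a level of at least 50, which all 12 but Pik3r3 passed, the shares were 7.47% and 8.59%. Pik3ap1, an adaptor that recruits PI3K to receptors in B cells, was at -0.81. The class II enzyme Pik3c2a was at 0.61, while the other class II gene listed, Pik3c2b, was at -0.41 (interval -0.84 to -0.005).

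The sequences before the starts of Pik3cd and Pik3cg are shown because these related genes parted furthest between the libraries, and those of Lat and Lat2 because the adaptors of that pair also differed, as described next. Each is the 250 bases upstream of the start, 5′ to 3′ on the strand of the gene, from RefSeq for GRCr8. RefSeq entries were matched by symbol for 8 of the 10 genes, all but Lcp2 and Grb2. Capitals mark GGAA or its reverse complement TTCC, the core of sites for ETS family factors such as PU.1.
Pik3cd (chr5:165403969-165404218, minus strand): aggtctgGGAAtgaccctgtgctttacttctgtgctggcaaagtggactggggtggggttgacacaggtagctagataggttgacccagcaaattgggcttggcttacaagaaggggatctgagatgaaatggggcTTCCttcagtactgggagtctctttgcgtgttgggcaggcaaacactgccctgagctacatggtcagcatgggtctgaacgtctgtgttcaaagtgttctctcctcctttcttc
Pik3cg (chr6:54529510-54529759, minus strand): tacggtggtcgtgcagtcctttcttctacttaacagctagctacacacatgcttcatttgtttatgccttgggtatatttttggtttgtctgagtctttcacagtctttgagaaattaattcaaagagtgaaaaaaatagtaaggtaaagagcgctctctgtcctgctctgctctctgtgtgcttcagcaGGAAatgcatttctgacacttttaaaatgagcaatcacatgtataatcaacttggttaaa
Lat (chr1:190372137-190372386, minus strand): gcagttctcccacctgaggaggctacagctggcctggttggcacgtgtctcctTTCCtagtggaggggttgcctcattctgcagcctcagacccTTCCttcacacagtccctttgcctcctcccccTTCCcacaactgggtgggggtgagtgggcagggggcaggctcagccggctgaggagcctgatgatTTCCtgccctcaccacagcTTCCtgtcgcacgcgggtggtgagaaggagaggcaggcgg
Lat2 (chr12:27740465-27740714, plus strand): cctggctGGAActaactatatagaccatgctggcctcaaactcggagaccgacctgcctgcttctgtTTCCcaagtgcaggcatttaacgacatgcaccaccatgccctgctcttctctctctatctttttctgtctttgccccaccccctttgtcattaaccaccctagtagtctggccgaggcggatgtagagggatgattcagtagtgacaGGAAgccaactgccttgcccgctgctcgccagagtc

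The window before Pik3cg was poor in G and C, at 38.0%, which is higher than in only 9.81% of 33469 RefSeq windows. That before Pik3cd was at 51.6%, near the median of 51.2% over all those windows. Over the 6498 symbols with a level of at least 50 and a window, the median was 60.8%, above both. The highest of the 8 were Gab2 and Plcg1, both at 76.8%. GGAA or TTCC stood at 2 places before Pik3cd, 1 before Pik3cg, 5 before Lat and 3 before Lat2, and is present in 93.2% of all windows. A further 5 motifs were searched on both strands. GATA, the core of GATA factor sites, was found before Pik3cd, Lat2 and Plcg2 (55.9% of all windows). TGANTCA, a loose form of the AP-1 site with any base at its centre, was found before Lat2 alone among the 8 (6.34% of windows). That match was TGATTCA, with T at the centre, so it may not be an AP-1 site, and binding was not tested. CACGTG, an E-box bound by MITF and related factors, was found before Lat and Plcg2 (5.59%). GCGTGGG, the EGR core, was found before none of them (3.68%), and GGGCGG, the GC box, before Gab2, Vav1, Plcg1 and Plcg2 (30.5%). In these 8 windows no match of 1 motif overlapped a match of another. Across 6498 symbols with a level of at least 50 and a window, the fold had a Spearman correlation of only -0.07 with the G and C content of the window; genes are not independent replicates.

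Lat (ENSRNOG00000017429) encodes the transmembrane scaffold that docks PLC-gamma and Grb2 once phosphorylated. Its level was 400 (242 reads) in treated cells and 597 (688 reads) in saline cells, a log2 fold of -0.58 (interval -0.80 to -0.36). Lat2 (ENSRNOG00000021856) encodes a related membrane adaptor, also called NTAL, that lacks a direct docking site for PLC-gamma and dampens degranulation in mouse mast cells. It had 363 (220 reads) in treated cells and 330 (380 reads) in saline cells, a log2 fold of 0.14 (interval -0.11 to 0.38). Lat was thus lower in the treated library, while Lat2 could not be told apart between the libraries at this depth. Lat took 52.4% (interval 47.7 to 57.0) of the reads on both genes in the treated library and 64.4% (interval 61.5 to 67.3) in the saline library, and these intervals did not overlap. The odds differed by -0.72 on the log2 scale (exact conditional interval -1.05 to -0.39).

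The cytosolic adaptors gave smaller differences. Lcp2 (ENSRNOG00000005620), which encodes the scaffold that links LAT complexes to Vav1 and PLC-gamma, had the most reads of the 10 genes. Its level was 3782 (2290 reads) in treated cells and 3300 (3805 reads) in saline cells, a log2 fold of 0.20 (interval 0.12 to 0.27). Lcp2 alone made up 39.4% of the reads of the 10 genes in treated cells and 31.8% in saline cells. Gab2 (ENSRNOG00000011882), the docking protein that binds the regulatory subunit of PI3K, went the other way, with 545 (330 reads) in treated cells and 742 (856 reads) in saline cells. This is a log2 fold of -0.45 (interval -0.63 to -0.26). Grb2 (ENSRNOG00000003990), which links phosphorylated adaptors to the Ras exchange factor SOS and carries Gab2, had 785 (475 reads) in treated cells and 862 (994 reads) in saline cells, a log2 fold of -0.14 (interval -0.30 to 0.02).

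Grb2 was the only one of the 10 symbols with more than 1 listed transcript. A second row under a separate gene identifier had 0 reads in treated cells and 6 reads in saline cells, of a sum of 994, so that it changed the fold of Grb2 by little; the main transcript alone was at -0.13. Its 6 reads correspond to 5.2 normalised counts, near the 4.95 that a floor of 3 reads allows in the treated library, and no difference was detectable at this depth. RefSeq lists a Grb2 pseudogene, and reads could be shared between near-identical copies.

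Vav1 (ENSRNOG00000050430) encodes a haematopoietic exchange factor for Rac and related GTPases that binds Lcp2. It had a level of 550 (333 reads) in treated cells and 805 (928 reads) in saline cells, a log2 fold of -0.55 (interval -0.73 to -0.37). Its fold was close to that of Lat, and the intervals of the pair overlapped over most of their length. Of 19 other adaptors and exchange factors 17 were measured, with a median of -0.26. In this list 1 was at least 2-fold higher and 2 at least 2-fold lower, beside 12.1% and 19.1% of all symbols. At a level of at least 50 these shares were 7.47% and 8.59%. Vav2, a broadly expressed relative of Vav1, was lower at -2.15 (interval -3.61 to -1.11) on 7 against 63 reads, and Vav3 was at -0.19 (interval -0.56 to 0.16). Dok1, an adaptor that restrains tyrosine kinase signals, was at -1.06 (interval -1.33 to -0.80, 151 against 599 reads). Nck1, a cytoskeletal adaptor that binds Lcp2 in T cells, stood on the high side at 1.26 (interval 0.94 to 1.59, 178 against 141 reads). The members of this list with the highest mean levels, Fyb and Skap1, which form an adaptor pair that regulates integrins in T cells, were at 0.39 and 0.29. Grap2, the adaptor that holds Lcp2 to LAT, was at -0.54 (interval -0.77 to -0.32), and Sh3bp2, another partner of the complex, at -0.97.

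The phospholipase C-gamma genes had nearly the same fold. Plcg1 (ENSRNOG00000051490), the broadly expressed gamma isoform, had a level of 348 (211 reads) in treated cells and 441 (509 reads) in saline cells, a log2 fold of -0.34 (interval -0.58 to -0.11). Plcg2 (ENSRNOG00000051986), the isoform typical of haematopoietic cells, had 575 (348 reads) in treated cells and 707 (815 reads) in saline cells, a log2 fold of -0.30 (interval -0.48 to -0.12). Plcg1 took 37.7% (interval 33.7 to 41.9) of the reads on both genes in the treated library and 38.4% (interval 35.8 to 41.1) in the saline library. The odds differed by -0.04 on the log2 scale with an exact conditional interval of -0.35 to 0.26, so that the reads allow any shift of their ratio within that range.

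Among other phospholipase C genes, 7 of 11 were measured. Here 1 was at least 2-fold higher and 3 at least 2-fold lower, beside 12.1% and 19.1% of all symbols. Symbols with a level of at least 50 gave shares of 7.47% and 8.59%. The 3 lower ones include Plcd1, which had 0 against 4 reads. Its interval had no lower end and reached up to 1.53, so that it held 0. The median of the 7 genes was -0.90, or 0 with Plcd1 set to no difference. Plcb2, a G protein-driven isoform of blood cells, was at -2.50 (interval -4.11 to -1.42) on 6 against 70 reads, and Plcd3 at -1.32 (interval -2.07 to -0.67, 22 against 106 reads). Plcd4 was at 1.09 on 13 against 11 reads with an interval of -0.10 to 2.47 that held 0, and at 0.86 with a pseudocount of 5. The genes of highest level were Plcl2, a catalytically inactive relative, at 0.13, and Plcb3 at -0.90 (interval -1.16 to -0.66).

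Upstream of the 10 genes, 9 of 10 receptor and kinase genes were measured, with a median of 0.32. Among them 0 were at least 2-fold higher and 2 at least 2-fold lower, beside 12.1% and 19.1% of all symbols. With a level of at least 50 the shares of symbols were 7.47% and 8.59%. Syk, the kinase that phosphorylates LAT, was among the lower ones at -1.14 (279 against 1171 reads). Ms4a2, the beta chain of the receptor, was at 0.79 and the kinase Btk, which activates PLC-gamma, at 0.36 (interval 0.25 to 0.48).

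Downstream, in the diacylglycerol, IP3 and Ras arm, 20 of 22 genes were measured, with a median of -0.37. In this arm 3 were at least 2-fold higher and 1 at least 2-fold lower, beside 12.1% and 19.1% of all symbols. Those shares were 7.47% and 8.59% at a level of at least 50. All 3 higher ones had 0 reads in the saline library. Of these Rasgrp1 and Dgka had 2 reads each in the treated library. That is a level 1.27-fold what a floor of 3 reads allows in the saline library, and their intervals held 0. Itpka had 4 reads, a level 2.54-fold that floor, and its exact interval reached down to a log2 ratio of 0.33. The lower one was the protein kinase C isoform Prkch at -1.27 (interval -1.95 to -0.68, 27 against 126 reads). Its members with the highest levels were Prkca at -0.49 (interval -0.60 to -0.37) and the IP3 receptor Itpr3 at -0.83 (interval -0.98 to -0.69). Among PIP3 effectors and phosphatases, all 15 were measured, with a median of -0.08. There 1 was at least 2-fold higher and 0 at least 2-fold lower, beside the same shares of all symbols. Inpp5d, which encodes the PIP3 phosphatase SHIP1, was at -0.71 (interval -0.82 to -0.60), and Rac2, the gene of highest level in that list, at 0.15. The kinases that PIP3 recruits included Akt1 at -0.71 and Akt2 at -0.41.

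**Figure D4:**
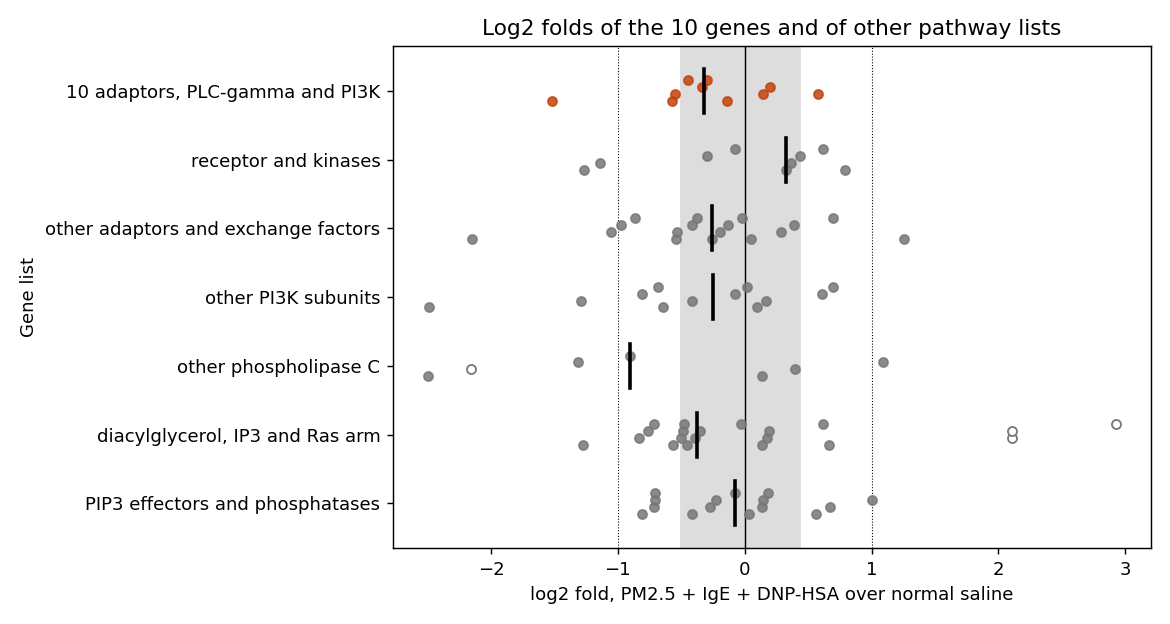
Log2 folds of treated over saline cells for the 10 genes (top) and 6 lists of other pathway genes (1 point per gene, black bar the median; open points are genes with 0 reads in 1 library; the grey band is the interquartile range of all symbols with a level of at least 50, dotted lines mark 2-fold). The median of the 10 genes is -0.32 and those of the other lists lie between -0.90 and 0.32; the lowest, that of other phospholipase C genes, is 0 with Plcd1 (0 against 4 reads) set to no difference.

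Folds of the genes were set beside those of their neighbours on the chromosome, since folds were related to those of nearby genes across these libraries (Spearman correlation 0.36 with the median of the 10 nearest genes, over 8200 symbols with a level of at least 50; genes are not independent replicates). For 7 of the 10 genes the fold had the same sign as the neighbours' median, and for 3, Lat2, Lcp2 and Gab2, the opposite sign. The genes with the widest folds both lay among neighbours on the same side. The 10 nearest genes of Pik3cd had a median of -0.71 and ranged between -1.06 and 0.41, so that Pik3cd lay below every one of them. The 10 nearest genes of Pik3cg had a median of 0.83, higher than Pik3cg itself, and 9 of them were above 0. Lat, at -0.58, lay near the median of -0.47 of its neighbours, none of which was above 0. Lat2 differed by 0.78 from a neighbour median of -0.64. The part of this relation in the folds was not tested.

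**Figure D5:**
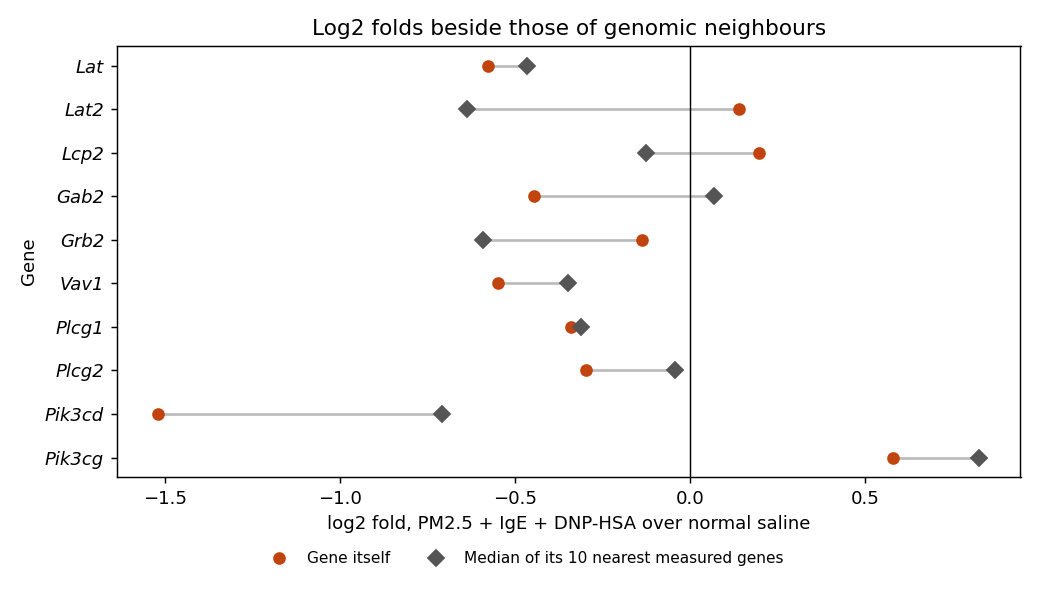
Log2 folds of treated over saline cells for each of the 10 genes (circles) and the median of its 10 nearest measured genes in the RefSeq order of GRCr8 (diamonds). Pik3cd at -1.52 lies left of its neighbours' median of -0.71, and Pik3cg at 0.58 lies left of a neighbours' median of 0.83.

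In the authors' deposited table, none of the 11 transcripts of these genes was among the 57 that the authors selected. The authors' deposited table gives Pik3cd a p-value of 0.0694 and an adjusted value of 0.92, with 194 of 20367 transcripts at a p as low. The lowest p-value of any transcript in the authors' deposited table was 0.0345 and the lowest adjusted value 0.92, and among the 10 genes the p-values of the others ran between 0.24 for Pik3cg and 0.782 for Lat2.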

How the data were processed

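Transcript levels of RBL-2H3 cells were measured in 1 library per group by strand-specific sequencing of total RNA, per the labels' protocols. Tools named in the submitters' processing notes are STAR 2.5, DESeq 1.22.1, Cuffnorm and FastQC, with no role or order; the build, the annotation and how reads were counted are not given here. The authors deposited 1 log2 value per transcript and library. Taken off the log2 scale and less 1, 100% of these were whole multiples of 1 step per library, within 1e-06 reads, which gave size factors of 0.605 for the treated and 1.15 for the saline library and the reads behind each value. The authors' deposited p-values and log2 folds (saline over treated in their table) were used only as listed. Left out were 4 further columns that repeat the sample values.

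Values were added up over the transcripts of a symbol, without 1276 transcripts that have none. The size rule asked for a log2 fold of 1 or more in size and a level of at least 1 in either library. It stands in for a test, since 1 library per group allows none. The 10 genes and 6 lists of 89 pathway genes (79 matched by symbol, 1 by synonym, 9 not matched) were chosen with earlier results of these data known. Named were all 10 genes and, of each list, genes past the size rule with at least 10 reads in a library and the 2 of highest mean level; others named from the lists were chosen after their values were seen. Some genes that this rule takes are not reported here. Gene order, synonyms and upstream sequences came from RefSeq tables for GRCr8. Alternatives were other pseudocounts, filters and scalings, the highest transcript alone and lncRNA transcripts left out. Reads are not independent molecules, so intervals and floors cover counting error only. The procedure was tested on simulated data. The simulation held counting error alone, so it cannot show how cultures or libraries vary. Software was SciPy 1.17.1, pandas 2.3.3 and NumPy 2.4.6 under Python 3.11.15, with figures by Matplotlib 3.10.9.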

Additional observations from a re-analysis of the deposited data

How the results depend on the processing

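All 10 log2 folds kept their sign under the 7 alternatives that could change them, and each stayed within its counting interval; Pik3cd ranged between -1.58 and -1.497 and Pik3cg between 0.52 and 0.60. The counts of 1 gene lower and 0 higher and the median of the 10 genes (-0.37 to -0.30) were also the same under 10 alternatives by these criteria. Counts over all symbols depended on the treatment of low levels: 1826 were at least 2-fold higher and 2876 lower as deposited, against 1023 and 1650 with a pseudocount of 5, 707 and 813 with a filter of 50, and 1894 lower with a filter of 5. Scaling moved the treated library by between -0.06 and 0.02 on the log2 scale. No paired analysis was possible because each group has 1 library, which also leaves nothing to leave out. Lat2 and Grb2 had small log2 folds of 0.14 and -0.14, and at this depth their intervals held 0.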

Other observations

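Itpr1, a receptor through which IP3 releases calcium, held the only transcript of the 6 pathway lists that the authors selected. That transcript had 48 reads in treated cells and 638 in saline cells, with a p-value of 0.0389 in the authors' deposited table. Summed over its 5 transcripts, Itpr1 was at -0.50 (interval -0.71 to -0.30, 275 against 741 reads). Another of its transcripts had 227 reads in treated cells and 0 in saline cells, and the other three had reads in the saline library alone. Reads of Itpr1 were thus assigned to different annotated transcripts in the libraries. Assignment of reads among transcripts of 1 gene is uncertain, and whether this split lies in the RNA itself was not tested. All of the 10 genes but Grb2 have 1 listed transcript, so that no such split can be seen for them.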
